A study of Mus musculus with 18 samples.

Results

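The genes described here are 10 genes that mark the hepatocytes around the central vein and depend on Wnt signalling: *Glul*, *Axin2*, *Lgr5*, *Rnf43*, *Znrf3*, *Tbx3*, *Slc1a2*, *Rhbg*, *Oat* and *Lect2*. They were chosen by name, matched to the Ensembl identifiers of the count tables, and make up 10 of the 22524 genes listed. Liver RNA was sequenced from 10 *Rps2*-A226Y mice and 8 WT mice, with 1 library per mouse. All were females aged 15 months on a C57BL/6 background. The A226Y mice were heterozygous for an *Rps2* allele with the A226Y substitution in a protein of the small ribosomal subunit, which raises translation errors. This allele was made in embryonic stem cells of another strain, and the line was then backcrossed to C57BL/6. The allele carries a floxed transcriptional stop that Cre removes. Cre came from a CMV-Cre transgene active in all tissues, which the WT controls also carried. According to the methods, A226Y animals were mosaics with partial excision, so that their livers also held cells in which the stop still silenced the targeted allele. The comparison asks how expression in the livers of the A226Y mice differed from that in the WT mice.

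In each liver lobule, blood flows from the portal tract to the central vein, and hepatocytes differ in their tasks along the way. Endothelial cells of the central vein secrete Wnt ligands and R-spondin 3, which activate β-catenin in the neighbouring hepatocytes. These cells then express glutamine synthetase and other pericentral genes, whereas urea synthesis and gluconeogenesis are stronger near the portal tract. Some of the 10 genes encode regulators of the pathway itself, and the others encode enzymes, transporters and a secreted protein. In these bulk samples, fewer cells of a type and less RNA per cell cannot be told apart.

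Each mouse contributed between 23850565 and 62126131 counts (median 32018677). Values are given as CPM (the count of a gene as a rate per library size, after TMM scaling), and genes were called when the adjusted p of edgeR's quasi-likelihood test was under 0.05. *Rps2*, summed over both alleles, ranged from 46.9 to 83.0 CPM in the A226Y mice and from 103.9 to 143.1 CPM in the WT mice, without overlap. On the first principal component of all tested genes (25.1% of the variance), the A226Y mice scored between 0.4 and 26.5. WT mouse 6 scored 11.5, WT mice 28 and 4 scored −4.7 and −5.1, and the other 5 WT mice scored between −39.0 and −21.9. Thus 3 of the 8 WT mice stood apart from the other 5, and WT mouse 6 lay among the A226Y mice. A226Y mouse 29 differed from every other A226Y mouse by a chi-square of 215 to 474 per degree of freedom over all genes, beside at most 94.4 between the others. WT mouse 33 differed from the other WT mice by 137 to 204.1, beside at most 114.

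Of the 10 genes, 3 were called: *Znrf3* was higher, and *Rhbg* and *Lect2* were lower in A226Y mice. Among all 13353 tested genes, 14.3% were called, 7.27% higher and 7.03% lower. At an unadjusted p under 0.05, 29.6% of the tested genes and the same 3 members passed. The median log2 fold change (A226Y minus WT) of the 10 genes was −0.06, beside 0.00 for all tested genes, with 4 positive and 6 negative values. Without A226Y mouse 29 the median of the 10 genes was 0.03, 4 values were negative, and the same 3 genes were called. The classical markers *Glul*, *Axin2* and *Lgr5* were not called. In none of the 10 genes were the CPM ranges of the genotypes separate, a pattern found in 0.637% of the tested genes.

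**Figure D1:**
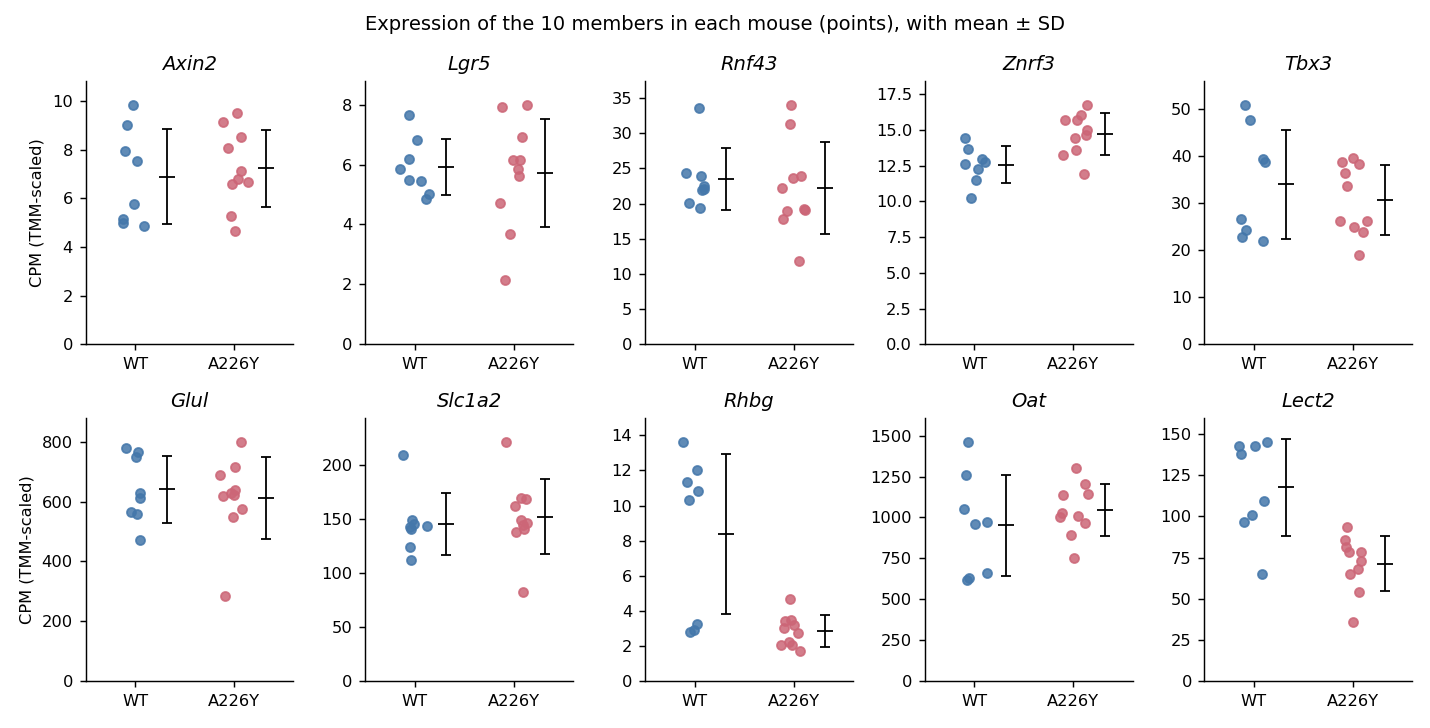
Expression of the 10 genes in CPM (linear axis from 0) for each mouse (points) of the 8 WT and 10 A226Y mice, with the mean ± SD as a bar beside them. *Lect2* and *Rhbg* sit lower in A226Y, *Rhbg* splits the WT mice into 5 above 10 CPM and 3 below 4 CPM, and 1 A226Y mouse lies far below the others for *Glul*.

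The first 5 genes are regulators of the pathway or act downstream of it as a transcription factor. *Axin2* (chr11:108920349-108950783, GRCm38, plus strand) encodes a scaffold of the complex that destroys β-catenin and is a widely used readout of Wnt activity. Its level was 4.64 to 9.52 CPM in the A226Y mice (median 6.96) and 4.88 to 9.85 CPM in the WT mice (median 6.65). The ranges nearly coincided, and the log2 fold change was 0.07 (95% interval −0.27 to 0.41, adjusted p = 0.813, edgeR's quasi-likelihood test). *Lgr5* (chr10:115450311-115587780, minus strand) encodes a receptor for R-spondins. It ranged from 2.15 to 7.99 CPM in A226Y (median 6.01) and from 4.85 to 7.67 CPM in WT (median 5.68). Here 3 A226Y mice lay below every WT mouse and 2 lay above every WT mouse. Its log2 fold change was −0.05 (95% interval −0.43 to 0.33, adjusted p = 0.889).

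*Rnf43* and *Znrf3* encode related membrane ubiquitin ligases that remove Frizzled receptors from the cell surface and so restrain the pathway. *Rnf43* (chr11:87662722-87735539, plus strand) ranged from 11.8 to 34.0 CPM in A226Y (median 20.8) and from 19.3 to 33.6 CPM in WT (median 22.3). Its log2 fold change was −0.08 (95% interval −0.41 to 0.25, adjusted p = 0.774), although 5 A226Y mice lay below every WT mouse. *Znrf3* (chr11:5276324-5444847, minus strand) ranged from 11.9 to 16.8 CPM in A226Y (median 14.8) and from 10.2 to 14.5 CPM in WT (median 12.7). Of the 10 A226Y mice, 7 lay above every WT mouse and 9 lay above the WT mean. The mean was 14.7 ± 1.46 CPM (SD, n = 10) against 12.6 ± 1.30 CPM (SD, n = 8), a log2 fold change of 0.23 (standard error 0.07, 95% interval 0.08 to 0.38). The adjusted p was 0.0417 by edgeR's quasi-likelihood test, and a two-sided exact permutation test on log2 CPM, which used each of the 43758 ways to divide the mice, gave p = 0.0059. This call was lost with the surrogate variables (log2 fold change 0.13, adjusted p = 0.438), and when any 1 of 12 mice was left out (A226Y mice 3, 7, 11, 22, 23 and 32 and WT mice 4, 13, 14, 21, 28 and 33), where the adjusted p reached 0.0882.

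*Tbx3* (chr5:119670669-119684724, plus strand) encodes a T-box transcription factor. It ranged from 18.9 to 39.7 CPM in A226Y (median 29.98) and from 21.9 to 50.9 CPM in WT (median 32.6). The genotypes overlapped over most of this span, and 2 WT mice lay above every A226Y mouse. Its log2 fold change was −0.15 (95% interval −0.53 to 0.23, adjusted p = 0.629, edgeR's quasi-likelihood test).

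The other members handle nitrogen or are secreted. *Glul* (chr1:153899944-153909723, plus strand) encodes glutamine synthetase, which removes ammonia that escaped the urea cycle. It ranged from 284 to 801 CPM in A226Y (median 626) and from 471 to 779 CPM in WT (median 620.3). The medians lay close together, and 1 A226Y mouse, animal 29, was far below all others. The log2 fold change was −0.07 (95% interval −0.37 to 0.24, adjusted p = 0.801). *Slc1a2* (chr2:102658659-102790784, plus strand) encodes a high-affinity glutamate transporter, which supplies the substrate of glutamine synthetase. Its level was 82.3 to 222 CPM in A226Y (median 148) and 112 to 209.6 CPM in WT (median 143). All 8 WT mice lay within the A226Y range, and the log2 fold change was 0.06 (95% interval −0.23 to 0.35, adjusted p = 0.803).

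*Oat* (chr7:132557478-132576398, minus strand) encodes ornithine aminotransferase, a mitochondrial enzyme that turns ornithine towards glutamate and proline. It ranged from 752 to 1302 CPM in A226Y (median 1019) and from 618 to 1464 CPM in WT (median 968). The WT mice were the more scattered, with a coefficient of variation of 32.4% beside 15.2% in A226Y, and 3 of them lay below every A226Y mouse. The log2 fold change was 0.13 (95% interval −0.19 to 0.46, adjusted p = 0.611).

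*Lect2* (chr13:56542464-56548502, minus strand) encodes a protein secreted by hepatocytes into the blood. It ranged from 36.1 to 93.4 CPM in A226Y (median 75.6) and from 65.0 to 145.5 CPM in WT (median 124). Every A226Y mouse was below the WT mean, and 7 of the 8 WT mice lay above every A226Y mouse. WT mouse 6, at 65.0 CPM, was the one within the A226Y range. The mean was 71.3 ± 16.6 CPM (SD, n = 10) against 117.7 ± 29.3 CPM (SD, n = 8), and *Lect2* fell by 0.72 on the log2 scale (standard error 0.16, 95% interval −1.06 to −0.38). The adjusted p was 0.0078 by edgeR's quasi-likelihood test, and the two-sided exact permutation test gave p = 0.00146. With the surrogate variables as covariates the log2 fold change was −0.35 (adjusted p = 0.168), whereas with any 1 mouse left out it stayed between −0.81 and −0.64 and was called.

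*Rhbg* (chr3:88242874-88254709, minus strand) encodes a membrane channel of the Rhesus family that carries ammonia into and out of cells. It had 51 to 390 counts per mouse, few beside most members. It ranged from 1.71 to 4.70 CPM in A226Y (median 2.88) and from 2.77 to 13.6 CPM in WT (median 10.6). The WT mice fell into separate ranges: mice 13, 14, 21, 24 and 33 had between 10.3 and 13.6 CPM, and mice 6, 4 and 28 had 2.77, 2.93 and 3.26 CPM, within the A226Y range. The mean was 2.86 ± 0.90 CPM (SD, n = 10) against 8.38 ± 4.58 CPM (SD, n = 8), and *Rhbg* fell by 1.56 on the log2 scale (standard error 0.31, 95% interval −2.19 to −0.92). The adjusted p was 0.00363 by edgeR's quasi-likelihood test, and the two-sided exact permutation test gave p = 0.00272. The 3 WT mice with low *Rhbg* were the 3 that stood apart on the first principal component, and the part of that difference between mice in the result was not tested. With the surrogate variables the log2 fold change was −0.41 (adjusted p = 0.426).

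*Rhbg* shares 1190 bases of its exons with the predicted gene *Gm38392* on the same strand, so short reads could be counted for either. *Gm38392* carried between 82.8% and 116% as many counts as *Rhbg* in each mouse. It ranged from 1.81 to 4.49 CPM in A226Y and from 2.58 to 11.4 CPM in WT, with a log2 fold change of −1.36 (adjusted p = 0.00465, edgeR's quasi-likelihood test). With the counts of both genes summed into 1 feature the log2 fold change was −1.46 (adjusted p = 0.00387). The level of *Rhbg* itself is therefore uncertain, while the lower level held for both genes together. Exons of *Glul* share 116 bases with *Teddm2* on the opposite strand, and those of *Axin2*, *Tbx3* and *Slc1a2* share between 115 and 209 bases with annotated antisense RNAs, which the counts cannot tell apart without strand.

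**Figure D2:**
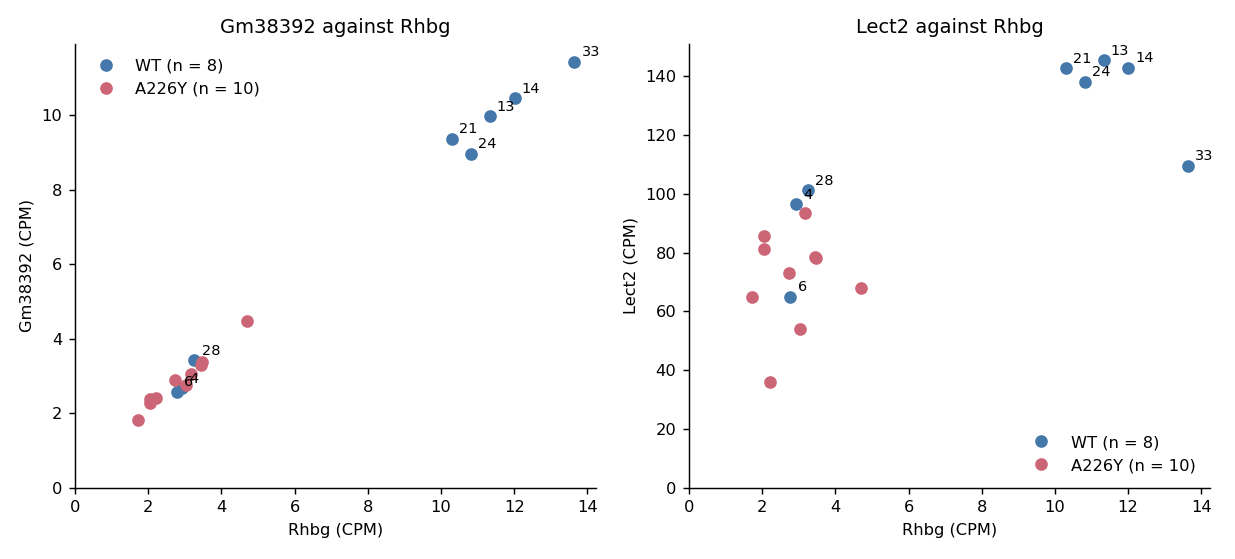
CPM of *Gm38392* (left) and of *Lect2* (right) on the vertical axes against CPM of *Rhbg* on the horizontal axes, 1 point per mouse, with the WT mice numbered. *Gm38392* tracks *Rhbg* in every mouse, and WT mice 4, 6 and 28 lie beside the A226Y mice for *Rhbg* and have the 3 lowest WT levels of *Lect2*.

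**Figure D3:**
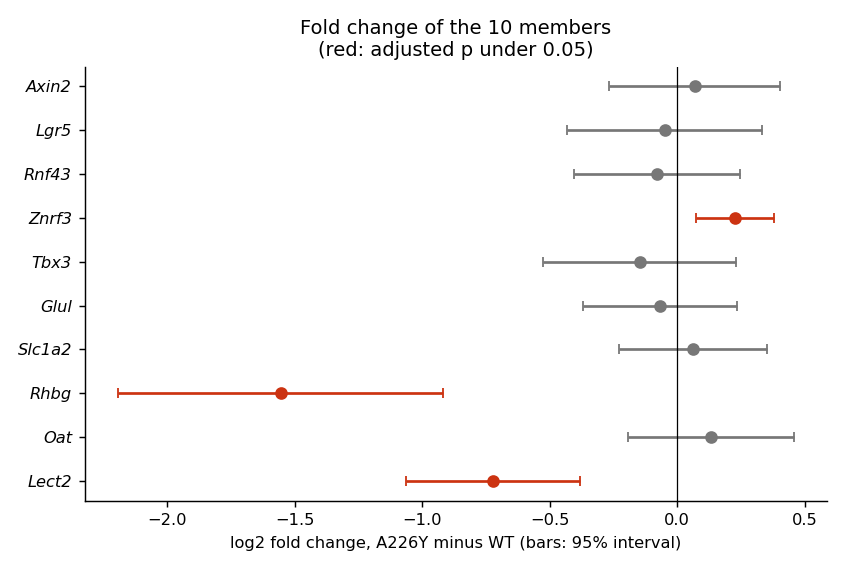
Log2 fold change (A226Y minus WT, horizontal axis) of the 10 genes with 95% intervals, red where the adjusted p was under 0.05. The intervals of *Rhbg* (−2.19 to −0.92), *Lect2* (−1.06 to −0.38) and *Znrf3* (0.08 to 0.38) leave out 0, and those of the other 7 genes include it.

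β-catenin acts on DNA through TCF/LEF factors, whose core motif was searched on both strands in 4 forms that differ in the last bases. The search used RefSeq promoters of GRCm38.p6, from 250 bases before to 50 bases after each start site. Of the 10 genes, 6 had a promoter in this set (7 promoters), and *Lgr5*, *Znrf3*, *Tbx3* and *Rhbg* were not among them. Of 32851 promoters of all genes, 3.73% held the form CTTTGAT, 5.14% held CTTTGAA, 5.85% held CTTTGTT, 3.63% held CTTTGTA and 16.9% held any of them. Among the members, *Slc1a2* and *Lect2* had 1 match each, shown here because *Lect2* was called and *Slc1a2* was not. The 30 bases around each match follow 5′ to 3′ on the gene's strand, with the match, the reverse complement of CTTTGAT, in capitals.
Slc1a2: agaagagggacATCAAAGgccccaaatggt
Lect2: tgcttctccagATCAAAGgctttggccggc
The *Slc1a2* sequence lies at chr2:102706220-102706249 on the plus strand, inside the span of the gene in the other annotation, with its match starting 207 bases before the start site. The *Lect2* sequence lies at chr13:56548552-56548581 on the minus strand, with its match starting 32 bases before the start site. Both genes hold the same letters, and no binding was measured.

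Per kilobase of exon, levels spanned a wide range. Mean levels in CPM per kilobase over all 18 mice were 425 for *Oat*, 188 for *Glul* and 11.4 for *Slc1a2*, with *Lect2* between the latter at 77.6 in A226Y and 128 in WT. They were 4.86 for *Tbx3*, 3.47 for *Rnf43*, 1.74 for *Znrf3*, 1.29 for *Axin2* and 0.566 for *Lgr5*. The place of *Rhbg* differed between the genotypes, with 1.47 in A226Y, below *Znrf3* (1.86), and 4.33 in WT, above *Rnf43* (3.58). Of neighbours in the order over all mice, the ranges over mice were separate between *Oat* and *Glul*, between *Lect2* and *Slc1a2* and between *Axin2* and *Lgr5*, and overlapped between all other neighbours. Enzymes and the secreted protein thus had higher levels per length than the pathway regulators. The coefficient of variation of CPM in the A226Y mice was 9.94% for *Znrf3* and from 15.2% to 31.8% for the other 9 genes, beside a median of 13.2% over the 11941 genes whose mean reached 1 CPM. In the WT mice it was 10.4% for *Znrf3* and from 16.0% to 54.6% for the other 9 genes, beside a median of 12.8%. Single mice set some of this spread. Without A226Y mouse 29 the value of *Glul* in A226Y changed from 22.2% to 11.8%. Without WT mouse 24 that of *Rnf43* in WT changed from 18.9% to 8.39%, and without WT mouse 33 that of *Slc1a2* from 19.6% to 9.98%, each then below the median over genes.

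A226Y mouse 29 had the lowest level among all 18 mice for 6 of the 10 genes: *Glul*, *Lgr5*, *Rnf43*, *Tbx3*, *Slc1a2* and *Lect2*. In the same mouse the summed level of 8 Kupffer cell markers was 1195 CPM, beside 289.8 to 739 CPM in the other A226Y mice. It was also the lowest of the 18 mice for the summed level of 24 other pericentral genes (10460 CPM, the next mouse at 14800 CPM), and for the 23 of them without *Cyp2e1* (7435 CPM, beside 9085 to 13310 CPM in the other A226Y mice). *Alb*, the albumin gene, was at 48040 CPM in this mouse and at 88040 to 116100 CPM in the other A226Y mice. The 8 hepatocyte markers without *Alb* summed to 49060 CPM, within the 40480 to 49940 CPM of the others, and the 24 periportal genes without *Alb* to 24400 CPM, within their 19460 to 26260 CPM. The part of these differences in its low member levels was not tested. WT mouse 24 had the highest WT level of *Axin2*, *Rnf43*, *Znrf3* and *Tbx3*.

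To describe whether the 10 genes varied together, log2 CPM was taken as the deviation from the genotype mean in each of the 18 mice. Of 45 pairs, 4 had a Pearson correlation with an adjusted p under 0.05, and 0 pairs passed by Spearman's rho (11 at an unadjusted permutation p under 0.05). *Glul* and *Slc1a2* had r = 0.855 (permutation p = 0.00011, adjusted p = 0.00427) and rho = 0.581 (permutation p = 0.0132, adjusted p = 0.194). Without the 2 mice farthest from the median, r was 0.606, and it was 0.923 within A226Y and 0.67 within WT. *Rnf43* and *Tbx3* had r = 0.698 (permutation p = 0.00019, adjusted p = 0.00427) and rho = 0.662 (permutation p = 0.00271, adjusted p = 0.061). Without the 2 farthest mice r was 0.621, and it was 0.784 within A226Y and 0.717 within WT. These pairs join 2 genes of glutamate and glutamine handling and 2 regulators.

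*Rnf43* and *Lect2* had r = 0.698 (permutation p = 0.00136, adjusted p = 0.0204) and rho = 0.676 (permutation p = 0.00226, adjusted p = 0.061), with r = 0.506 without the 2 farthest mice, 0.842 within A226Y and 0.463 within WT. *Glul* and *Lect2* had r = 0.729 (permutation p = 0.0044, adjusted p = 0.0495) and rho = 0.546 (permutation p = 0.0279, adjusted p = 0.195), with r = 0.481 without the 2 farthest mice, 0.856 within A226Y and 0.532 within WT. None of the 4 pairs was called without A226Y mouse 29: the values of r were 0.688, 0.623, 0.511 and 0.498 in the order given, with adjusted p of 0.0513, 0.0513, 0.179 and 0.335 by permutation, and 0 pairs were called (7 at an unadjusted permutation p under 0.05). *Glul* with *Lect2* was called in only 9 of 20 alternatives. Other pairs were closer without that mouse: r changed from 0.511 to 0.719 for *Glul* and *Rhbg*, from 0.62 to 0.748 for *Axin2* and *Tbx3*, and from 0.384 to 0.603 for *Axin2* and *Rnf43*. With all mice, r of these pairs was 0.834, 0.916 and 0.599 within WT and 0.375, 0.246 and 0.308 within A226Y. WT mice 4, 6 and 28, which were low for *Rhbg*, also had the lowest WT levels of *Glul* (470.7, 565.8 and 557.4 CPM). Without A226Y mouse 18, 2 pairs were called.

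**Figure D4:**
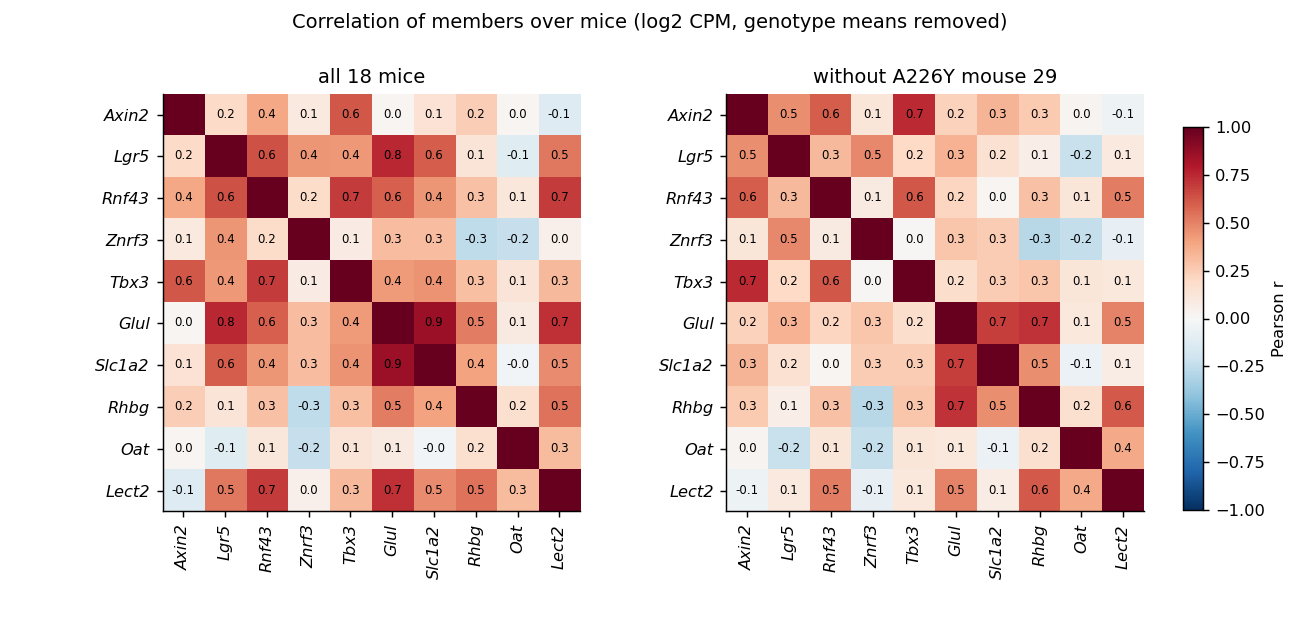
Pearson r between each pair of the 10 genes over mice (log2 CPM with genotype means removed), for all 18 mice (left) and without A226Y mouse 29 (right), coloured from −1 to 1. *Glul* and *Slc1a2* change from 0.855 to 0.688, several correlations of *Lgr5* and *Lect2* are lower on the right, and that of *Glul* and *Rhbg* is higher (0.511 and 0.719).

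Among these 11941 genes, those whose deviations over the 18 mice were most like those of *Glul* were *Nlrp6* (r = 0.879), *BC024139* (0.877), *Erbb4* (0.866), *Slc1a2* (0.855) and *Spp2* (0.852). Without A226Y mouse 29 these values were 0.62, 0.677, 0.571, 0.688 and 0.636. The genes had been picked for their high r with that mouse included, and were not ranked again without it. For *Axin2* they were *Neu1* (r = 0.745), *Csnk1e* (0.736), *Dnajb5* (0.719), *Fbxl8* (0.714) and *Rnf19b* (0.706), and no other member was among them. After its values were seen, *Lect2* was examined in the same way, and *Sult2a7* (0.943), *Immp2l* (0.939), *Bphl* (0.925), *Decr2* (0.921) and *Cenpx* (0.904) were the most alike. For *Rhbg*, examined for the same reason, the overlapping *Gm38392* (0.993) was followed by *Nrp1* (0.861), *Bsg* (0.846), *Shmt2* (0.83) and *Eci3* (0.827). The deviations of *Rhbg* still held the split between WT mice 4, 6 and 28 and the other WT mice. The part of that split in these values was not tested. These values describe 18 mice that share libraries across genes and carry no p.

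Of 4 further lists of the Wnt pathway (ligands, receptors, intracellular components, and antagonists with other targets), 53 genes were tested, of which 4 were higher, 2 were lower and 47 were not called (median log2 fold change 0.00), beside 14.3% called among all tested genes. Of the ligands and their secretion factors, 11 of 14 passed the count filter, and 1 was lower. *Wnt2* and *Wnt9b*, ligands made by liver endothelium, had log2 fold changes of −0.18 (adjusted p = 0.337) and 0.23 (adjusted p = 0.393). *Rspo3*, the R-spondin of the central vein, had 6.09 to 7.71 CPM in A226Y and 4.62 to 6.71 CPM in WT, a log2 fold change of 0.21 (95% interval 0.05 to 0.38) with an adjusted p of 0.0758 by edgeR's quasi-likelihood test. *Wnt5b*, a ligand known mainly for signalling without β-catenin, ranged from 10.6 to 17.97 CPM in A226Y and from 14.2 to 27.7 CPM in WT and fell by 0.53 on the log2 scale (adjusted p = 0.0117). With the surrogate variables, 0 of the 11 ligand and secretion genes were called.

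Of the receptors, 11 of 17 were tested, with 1 higher and 1 lower, beside 7.27% higher and 7.03% lower among all tested genes. With the surrogate variables, 0 of the 11 receptors were called. *Lrp5*, a co-receptor for Wnt ligands, ranged from 78.3 to 128 CPM in A226Y and from 62.0 to 83.9 CPM in WT (log2 fold change 0.41, adjusted p = 0.00688). *Fzd8*, a Frizzled receptor, ranged from 12.3 to 19.4 CPM in A226Y and from 16.3 to 26.7 CPM in WT and fell by 0.49 on the log2 scale (adjusted p = 0.00777). *Lgr4*, the R-spondin receptor related to *Lgr5*, had a log2 fold change of −0.07 (adjusted p = 0.593).

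Of 21 intracellular components, 3 were higher and 0 lower, at a median log2 fold change of 0.06, and 14 of the 21 values were positive, beside 7.27% called higher and 6546 of 13353 positive among all tested genes. The number of higher genes was 5 by DESeq2, with library size only and without WT mouse 6, and 1 with the surrogate variables. Over all tested genes the numbers of higher genes in these settings were 1247, 1399, 1268 and 112, instead of 971. The 3 encode parts or regulators of the complex that destroys β-catenin. *Gsk3b*, its kinase, ranged from 37.9 to 44.6 CPM in A226Y and from 30.8 to 36.5 CPM in WT, so that the genotypes did not overlap (log2 fold change 0.26, adjusted p = 0.002). *Apc*, its scaffold, ranged from 37.2 to 50.4 CPM in A226Y and from 28.5 to 40.4 CPM in WT (log2 fold change 0.31, adjusted p = 0.00563). *Tnks2*, a tankyrase that marks axin for degradation, completed the 3 (log2 fold change 0.16, adjusted p = 0.0139, edgeR's quasi-likelihood test). *Ctnnb1*, β-catenin itself, and *Tcf7l2*, a TCF factor, had log2 fold changes of −0.04 (adjusted p = 0.657) and 0.01 (adjusted p = 0.955). Of the antagonists and other targets, 10 of 18 were tested and 0 were called by edgeR's quasi-likelihood test. The 1 gene with an unadjusted p under 0.05, which DESeq2 called, was *Nkd1*, a target gene that feeds back on the pathway. It had 5.04 to 8.43 CPM in A226Y and 5.67 to 11.3 CPM in WT (log2 fold change −0.36, adjusted p = 0.0526). With the surrogate variables 1 of the 10 was called, *Notum*, which encodes a secreted enzyme that inactivates Wnt ligands (log2 fold change −0.37, adjusted p = 0.0426, beside −0.23 and 0.228 without them).

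Of 24 other pericentral genes, outside the 10, 8 were lower, 0 higher and 16 not called, at a median log2 fold change of −0.37, beside 7.03% lower among all tested genes. *Cyp1a2*, a cytochrome P450 of drug metabolism, ranged from 109.9 to 320.2 CPM in A226Y and from 262 to 843 CPM in WT (log2 fold change −1.03, adjusted p = 0.00601). *Rgn*, a calcium-binding lactonase, ranged from 352 to 664 CPM in A226Y and from 565 to 1057 CPM in WT (log2 fold change −0.90, adjusted p = 0.000932). The other 6 were *Cyp2c29*, *Gulo*, *Nr1i3*, *Akr1c6*, *Pon1* and *Mgst1*, of which *Cyp2c29* belongs to a family of similar genes between which reads could be split. *Cyp2e1* and *Cyp7a1*, the rate-limiting enzyme of bile acid synthesis, had log2 fold changes of −0.26 (adjusted p = 0.259) and −0.39 (adjusted p = 0.414). The number of lower genes was 4 without WT mouse 24, 5 without any 1 of A226Y mice 7, 15 and 32 and WT mice 13 and 28, 5 with the length offset and 2 with the surrogate variables, where the median was −0.19. At an unadjusted p under 0.05, 11 of the 24 genes were lower and 1 was higher, beside 29.6% of all tested genes in either direction.

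Of 25 periportal genes, 5 were higher and 1 was lower, beside 7.27% higher and 7.03% lower among all tested genes. Their median log2 fold change was 0.15. *Cps1*, which starts the urea cycle, ranged from 3222 to 6073 CPM in A226Y and from 2079 to 4269 CPM in WT (log2 fold change 0.55, adjusted p = 0.0137). *Cdh1*, E-cadherin, had a log2 fold change of 1.20 (adjusted p = 0.00559) and *Apoa4*, an apolipoprotein, one of 1.23 (adjusted p = 0.0264). *Sdsl* and *Gldc* were the other higher genes. The lower gene was *Cyp2f2*, a periportal cytochrome P450, at a log2 fold change of −0.58 (adjusted p = 0.0173). *Ass1*, of the urea cycle, and *Gls2*, the liver glutaminase, had log2 fold changes of 0.43 (adjusted p = 0.0699) and −0.06 (adjusted p = 0.762). At an unadjusted p under 0.05, 10 of the 25 genes were higher and 6 lower, beside 29.6% of all tested genes in either direction. DESeq2 called 7 higher and 3 lower, beside 1247 higher and 1171 lower of all 13353 tested genes. The median was 0.09 without WT mouse 21, 0.24 without WT mouse 13 and 0.03 with the surrogate variables, where 1 gene was higher. Of 4 midlobular genes, *Hamp2*, a hepcidin gene, was lower (log2 fold change −1.20, adjusted p = 0.0479, edgeR's quasi-likelihood test) and 3 were not called. *Hamp2* was called in 14 of 32 alternatives.

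**Figure D5:**
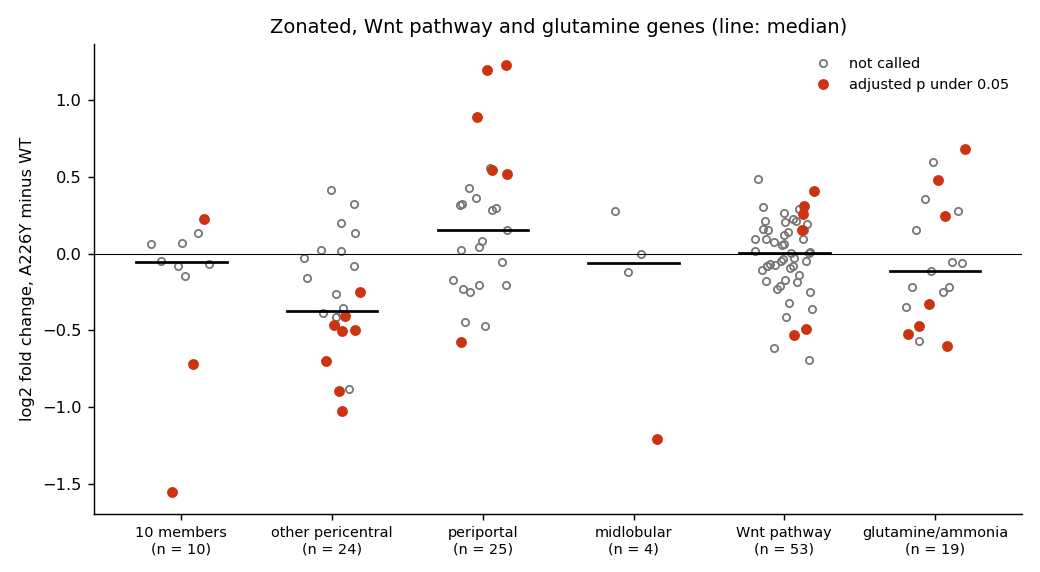
Log2 fold change (A226Y minus WT, vertical axis) of the tested genes of each list, red where the adjusted p was under 0.05, with the median as a line. The median is −0.06 for the 10 genes, −0.37 for the other pericentral genes and 0.15 for the periportal genes, and the 53 genes of the Wnt lists lie around 0.

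Around *Glul*, *Slc1a2*, *Oat* and *Rhbg*, 19 of 24 further genes of glutamine, glutamate, proline and ammonia handling were tested, of which 3 were higher and 4 lower (median log2 fold change −0.12), beside 7.27% higher and 7.03% lower among all tested genes. Only 1 was higher when any 1 of 9 mice was left out. With the surrogate variables 0 were called in either direction (2 higher and 5 lower at an unadjusted p under 0.05). DESeq2 called 3 higher and 6 lower, beside 1247 higher and 1171 lower of all 13353 tested genes. *Slc7a2*, a transporter of cationic amino acids, rose by a log2 fold change of 0.68 (adjusted p = 0.00874), and *Slc38a2*, a transporter of neutral amino acids, by 0.48 (adjusted p = 0.0489, called in 11 of 32 alternatives). *Slc38a3*, a glutamine transporter, ranged from 749 to 1068 CPM in A226Y and from 1025 to 1767 CPM in WT and fell by 0.47 on the log2 scale (adjusted p = 0.00896). *Aldh4a1*, of proline breakdown, fell by 0.52 (adjusted p = 0.00309), *Slc1a4*, an amino acid transporter of the family of *Slc1a2*, by 0.60 (adjusted p = 0.0258), and *Prodh* was also lower. *Aldh18a1*, of proline synthesis, had a log2 fold change of −0.57 (adjusted p = 0.0505, edgeR's quasi-likelihood test). Of 3 receptors reported for *Lect2*, *Met* (log2 fold change −0.15, adjusted p = 0.362) and *Tie1* (−0.26, adjusted p = 0.0563, called by DESeq2) were tested and not called.

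Markers of the cells in the samples were compared in the same fit, in which 7.27% of all tested genes were higher and 7.03% lower. At an unadjusted p under 0.05 the share in either direction was 29.6%. Of all 13353 tested genes, DESeq2 called 1247 higher and 1171 lower. Of 9 hepatocyte markers, 1 was higher (*Apob*, log2 fold change 0.29, adjusted p = 0.0329, edgeR's quasi-likelihood test, called in 20 of 32 alternatives). DESeq2 called 3 of the 9, the others being *Ttr* (log2 fold change −0.22) and *Serpinc1* (−0.17), which had negative values. The summed level of the 9 markers was 97100 to 166000 CPM in A226Y and 112200 to 205200 CPM in WT, of which *Alb* made up 67.0%. Of 6 markers of central vein endothelium, which include *Rspo3*, *Wnt2* and *Wnt9b*, 0 were called (2 at an unadjusted p under 0.05, 0 by DESeq2), and they summed to 21.5 to 26.8 CPM in A226Y and 20.3 to 28.3 CPM in WT. Of 10 sinusoidal endothelial markers 0 were called (1 at an unadjusted p under 0.05, 0 by DESeq2), with sums of 368 to 539 and 378 to 529 CPM. Of 8 Kupffer cell markers 1 was lower (*Clec4f*, log2 fold change −0.65, adjusted p = 0.0261), with sums of 289.8 to 1195 CPM in A226Y (median 402) and 439 to 898 CPM in WT (median 647). Of these 8, 7 had negative log2 fold changes (median −0.43) and DESeq2 also called *Vsig4* lower. Without A226Y mouse 29, in which the sum was highest, 5 of the 8 Kupffer cell markers were lower (median −0.63), as was 1 of 7 leukocyte markers (median −0.57). Leaving out that mouse also raised the lower genes over the whole data, to 1372 of 13320 tested genes from 939 of 13353. Of 8 stellate cell markers 2 were lower (*Colec11*, −0.30, adjusted p = 0.00867, and *Col1a1*, −0.77, adjusted p = 0.0162), with sums of 338 to 397 and 327 to 413 CPM. DESeq2 called these 2 and also *Dcn*, the most abundant of the 8, which had a positive log2 fold change of 0.18 (adjusted p = 0.0913 by edgeR's quasi-likelihood test). With the surrogate variables, 0 of the 8 stellate cell markers were called. Of 5 tested cholangiocyte, 7 leukocyte and 5 red blood cell markers 0 were called (1, 0 and 0 at an unadjusted p under 0.05, and 0 by DESeq2), with sums of 13.3 to 29.9 and 12.1 to 25.9 CPM, of 20.8 to 52.7 and 20.7 to 112 CPM, and of 164 to 422 and 208 to 764 CPM. The median log2 fold changes were 0.21 for the cholangiocyte markers, with 5 of 5 positive, −0.39 for the leukocyte markers, with 7 of 7 negative, and −0.45 for the red blood cell markers, with 5 of 5 negative. With the surrogate variables 1 of the 5 cholangiocyte markers was called, *Spp1* (log2 fold change 0.81, adjusted p = 0.0249, edgeR's quasi-likelihood test). Without them its log2 fold change was 0.21 (adjusted p = 0.501 by the same test). No marker in these lists was at 0 in all mice. The summed ranges of the genotypes overlapped for each cell type. The part of these cells in the member values was not tested.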

How the data were processed

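Liver RNA of 10 A226Y and 8 WT mice was analysed, grouped by the genotype in the sample labels. For each mouse the authors deposited a list of raw gene counts under Ensembl identifiers. The submitters' processing notes name GRCm38, STAR, featureCounts, fastp, bcl2fastq and MultiQC, whereas the methods describe quantification with RSEM against an Ensembl annotation of an assembly written as GRCm37, so the step that gave the counts is uncertain. Single-end short reads can be split between overlapping genes. Symbols, exon lengths and coordinates came from GENCODE M21 on GRCm38, which held 22291 of the 22524 identifiers.

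The 13353 genes that reached 10 counts in 50% or more of the A226Y or of the WT mice were tested with edgeR 4.0.16 in R 4.3.3, using TMM scaling, the two-sided quasi-likelihood test without covariates and Benjamini-Hochberg adjustment. The common biological coefficient of variation was 0.194. Each library held 23850565 or more counts, and the spread between mice was not compared with counting error for single genes. Mice of one genotype differed by a chi-square of 20.1 or more per degree of freedom, so all libraries were kept as separate. The labels do not say how the animals were related, and p-values measure the spread between these mice. Single members were compared with exact permutation tests of log2 CPM (prior count 2), and correlations with 100000 shuffles within genotype.

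The members and lists were chosen with earlier results of these data known, so no list serves as independent support. Named genes are the 10 members, a set of genes given whatever their result, and up to 2 called genes in each direction from each list whose mean reached 1 CPM. Further genes (*Tnks2*, *Tie1*, *Ttr*, *Serpinc1*, *Vsig4*, *Dcn*, *Notum*, *Spp1*, *Alb*, *Teddm2*, *Gm38392*, *Prodh*, *Sdsl*, *Gldc*, the 6 pericentral genes listed beside *Rgn*) and the likeness lists of *Rhbg* and *Lect2* were chosen after their values were seen. Alternatives were other scalings, filters and tests (DESeq2 1.42.0, limma-voom 3.58.1, likelihood ratio and robust fits), 4 surrogate variables (sva 3.50.0), lowess offsets on length or GC content (known for 13300 tested genes), and leaving out each mouse. Summing *Rhbg* with *Gm38392* was added after seeing the data. The procedures were tested on simulated counts. One gene's result is not reported here.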

Additional observations from a re-analysis of the deposited data

Results flagged for a closer look

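Within each genotype, the levels of the 10 members and the total count were examined for a mouse that stood apart by Dixon's gap criterion. Of 22 groups of values, 4 held such a mouse, and chance alone gives about 1 in 20. *Glul* was 284.3 CPM in A226Y mouse 29, the lowest, with the nearest A226Y mouse at 548.1 CPM. *Rnf43* was 33.59 CPM in WT mouse 24, the highest, with the nearest WT mouse at 24.29 CPM. *Slc1a2* was 209.6 CPM in WT mouse 33, the highest, with the nearest WT mouse at 148.9 CPM. The total count was 62126131 in A226Y mouse 23, with the nearest A226Y mouse at 33543360. Neither *Glul*, *Rnf43* nor *Slc1a2* was called between the genotypes, with or without these mice.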

How the results depend on the processing

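No paired analysis was possible because the genotypes share no animal numbers. With 4 surrogate variables as covariates, 248 genes in all were called instead of 1910, 0 members instead of 3 (1, *Lect2*, at an unadjusted p under 0.05), and 7 instead of 32 genes of the other lists. The cause was not tested. With 1 mouse left out at a time, these counts ranged from 1255 (without WT mouse 14) to 2560 (without A226Y mouse 29), from 2 to 3 and from 24 to 44, and called correlations from 0 (without A226Y mouse 29) to 6. *Znrf3* was called in 17 of 32 alternatives and was lost without a count filter and with the length offset. *Rhbg* and *Lect2* were each called in 31 of 32, and the exception was the surrogate variables. With library size as the only scaling, 67.9% of 2059 called genes were higher instead of 50.8%, the median log2 fold change of all genes was 0.04, and the same 3 members were called. The log2 fold changes of *Glul*, *Lgr5*, *Rnf43* and *Slc1a2* changed sign under some alternatives and were called in 0 of 32. Periportal genes called lower numbered 5 without WT mouse 6, 3 without A226Y mouse 5 and 2 without A226Y mouse 3 or 29, instead of 1. Higher glutamine and ammonia genes numbered 1 or 2 instead of 3 when any single mouse other than A226Y mouse 15 was left out, and 1 with upper-quartile scaling, no filter or either offset. Lower ones numbered 2 instead of 4 without WT mouse 13, and with the surrogate variables both counts were 0. The members with the fewest counts in a mouse were *Rhbg* (51), *Lgr5* (73) and *Axin2* (133), and the effect of depth was not tested.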
